A study of Mus musculus with 9 samples.

Results

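Genes of the pre-mRNA splicing machinery were followed through 3 successive days of mouse orofacial development. They were chosen by their symbols, as every gene named Srsf with a digit, Hnrnp, Snrp, Sf3a, Sf3b, U2af or Prpf whose probe set carried a single symbol in the array annotation. The rule found 52 genes among the 8251 single-symbol genes of the array, and where a gene had several probe sets the one with the highest mean intensity was used. By family these were 9 SR protein genes, 16 hnRNP genes, 8 snRNP genes (one of them the annotated pseudogene Snrp1c-ps2), 8 SF3 genes, 3 U2AF genes and 8 PRPF genes. All 52 passed the filter on dim probe sets. The 7 probe sets that joined a symbol of these families to other symbols were not used. Snrpa, Snrpd1, Snrpd2 and Hnrnpa3 were therefore not analysed here, and neither was Snrpn. Hnrnpa1 was read from 1 probe set, since further probe sets naming it were among the 7 left out.

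The series measured total RNA of embryonic mouse orofacial tissue, from which the face and palate form, on 9 one-colour oligonucleotide arrays. Gestation day (GD) 12, GD13 and GD14 had 3 arrays each, numbered 1 to 3. No treatment, allele, strain or dissection is named in the labels, so the groups differ by day alone as far as the labels go. The labels do not say whether the arrays of a day came from separate embryos or litters, and p-values therefore measure only the spread between these samples, which may be technical. The tissue is bulk, and a lower signal from fewer cells of a type cannot be told apart from less RNA per cell.

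The spliceosome removes introns from nuclear transcripts. U1 and U2 snRNPs, particles of small nuclear RNA and protein, mark the ends of an intron with the help of the U2AF heterodimer and the SF3 complexes, and the U4/U6.U5 tri-snRNP, which holds several PRPF proteins, then joins and is rearranged into the catalytic form. SR proteins and hnRNP proteins bind the transcript itself and shift the choice of splice sites, often in opposite directions. In humans, mutations in genes of this machinery, among them SF3B4 and EFTUD2, cause craniofacial malformation syndromes.

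Values are deposited intensities, linear numbers that had been scaled to a common level, with a trimmed mean (2% left out at either end) of 150.1 on each array. Differences are log2(intensity + 3) of the later day minus the earlier day. They were tested with limma over all 9326 probe sets above the filter, and an adjusted p under 0.05 counted as a change. Arrays of a day correlated at 0.951 to 0.969 across probe sets. The 3 arrays numbered 3 stood apart in the control probe sets: their 3' to 5' Gapdh ratio was 0.802 to 0.851, against 1.09 to 1.29 on the other arrays, and each had the lowest actin ratio of its day. On arrays 1 and 2 the actin ratio stood at 1.54 and 1.76 for GD12, at 2.09 and 2.23 for GD13 and at 2.44 and 2.29 for GD14, so that RNA or labelling quality and day cannot be told apart there.

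Mean intensities of the 52 probe sets ran from 25.6 for Prpf39 to 5041 for Srsf2, with a median of 418.4. Each probe set has its own response, so these values describe the signal of the probe sets and give no order of RNA levels between genes. The SD of log2 values within a day had a median of 0.24 for the members and 0.24 for all probe sets above the median intensity.

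Most splicing genes had lower intensities on GD14 than on GD12, by small amounts, and none passed the threshold. Of the 52 genes, 41 were lower and 11 higher on GD14, with a median log2 difference of -0.23, against -0.02 for all tested probe sets, of which 52.5% were lower. The single differences ran from -0.87 for Prpf31 to 0.43 for Snrpb2. GD14 against GD13 gave 42 lower and 10 higher genes with a median of -0.13, and GD13 against GD12 gave 33 lower and 19 higher genes with a median of -0.11. The corresponding medians of all tested probe sets were -0.03 and 0.03. Each day enters 2 of these comparisons, so the 3 medians are not independent.

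In limma, 0 of the 52 genes passed an adjusted p of 0.05 in any of the comparisons. The share of all tested probe sets that passed was 4.3% for GD14 against GD12 (302 higher, 99 lower), 0.643% for GD13 against GD12, 0.0429% for GD14 against GD13, 2.58% in the moderated F-test over the 3 days and 0% for the difference between the daily steps. The smallest adjusted p of a member in limma was 0.0991 (Sf3b1, GD14 against GD12), 0.143 (Prpf8, GD13 against GD12), 0.678 (Prpf38a, GD14 against GD13), 0.141 in the F-test and 0.953 for the step difference. With the array number as a block in limma, the call count on all probe sets for GD14 against GD12 was 620 in place of 401, and 1 member, U2af1, passed. Sf3b1 passed under several other settings, described with its values below.

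At an unadjusted p under 0.05 in limma, 9 of the 52 members were lower and 0 higher on GD14 than on GD12. Of all 9326 tested probe sets, 676 (7.25%) were lower and 952 higher at that threshold. The 9 members were Sf3b1, Sf3b3, Sf3a3, Prpf38a, Prpf8, Prpf31, Snrpg, Prpf19 and Snrpb. Of them, 3 came from the SF3 family, 4 from the PRPF family and 2 from the snRNP family, with none among SR, hnRNP or U2AF genes. This split depends on the cut-off and on the probe set read for each gene, and was not tested. Dimmer probe sets of Srsf1 (log2 difference -0.59) and Hnrnpu (-0.78, mean intensity 15.1) were also lower on GD14 at that threshold. The other tested dimmer probe sets, among them those of Sf3b1 (-0.13) and Prpf19 (-0.48), did not reach it. Snrpb had an unadjusted limma p of 0.0498, while Hnrnpm (0.0515), Hnrnph3 (0.0539) and U2af1 (0.0597) just missed the threshold. The other comparisons had 3 members (Prpf8, Sf3b3 and Sf3b1) for GD13 against GD12, 1 (Prpf38a) for GD14 against GD13, 4 (Prpf8, Sf3b3, Sf3b1 and Prpf38a) in the F-test and 2 (Prpf8 and Sf3b3) for the step difference. The members counted for GD13 against GD12 and for GD14 against GD13 were all lower on the later day. The background shares at that threshold, with both directions together, were 11%, 7.18%, 14.2% and 4.86% of the tested probe sets. Lower probe sets alone numbered 423 of 9326 for GD13 against GD12 and 254 for GD14 against GD13.

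The 3 arrays of GD14 all lay below the 3 arrays of GD12 for 15 of the 52 genes, or 28.8%, where this held for 10.3% of all tested probe sets and for 12.4% of those above the median intensity. The 15 were Prpf6, Prpf8, Prpf19, Prpf31, Prpf38a, Sf3a3, Sf3b1, Sf3b3, Snrpb, Snrpe, Snrpg, Hnrnph3, Hnrnpm, Hnrnpr and Srsf2. The opposite order, all GD14 arrays above all GD12 arrays, was found for 0 members and for 12.1% of all tested probe sets. GD13 lay wholly below GD12 for 9 members (17.3%), with a background of 8.39%, and wholly above it for 1 member, Prpf4b, with a background of 10.1%. Among the member probe sets, GD14 lay wholly below GD13 for Prpf38a alone, by a narrow margin, with a background of 5.88%. Dimmer probe sets of Srsf1, Srsf2, Srsf3 and Hnrnpu also had GD14 wholly below GD13, and that of Sf3a2 had it wholly above. Members share arrays and RNA samples, so these counts are a description and carry no p-value.

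**Figure D1:**
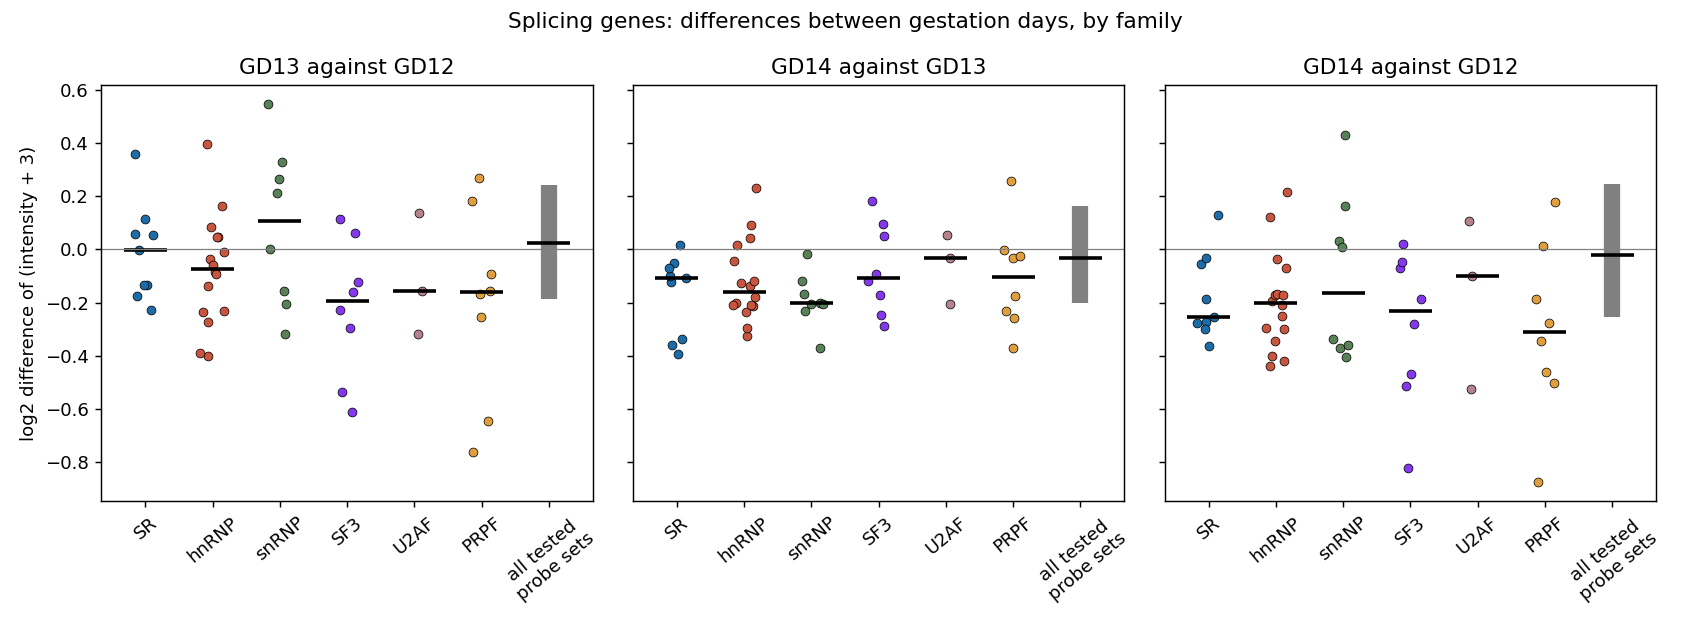
Log2 differences between gestation days (vertical axis, later day minus earlier day of log2(intensity + 3)) for each of the 52 splicing genes, one point per gene, grouped by family, in 3 panels. Black lines are medians, and the grey bar spans the 25th to 75th percentile of all 9326 tested probe sets. Most points of the right panel (GD14 against GD12) lie below 0, from -0.87 to 0.43, and snRNP genes lie on both sides of 0 in the left panel.

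The plot of differences by family shows how the 6 families compared. For GD14 against GD12 the median log2 difference was -0.31 for PRPF, -0.26 for SR, -0.23 for SF3, -0.20 for hnRNP, -0.16 for snRNP and -0.10 for U2AF genes, the last of which turned to 0.13 with the actin ratio as a covariate and was -0.05 with quantile normalization. Lower genes numbered 6 of 8, 8 of 9, 7 of 8, 14 of 16, 4 of 8 and 2 of 3 in that order. The snRNP genes had a positive median in the first daily step, 0.11 for GD13 against GD12 with 5 of 8 higher (4 of 8 with median scaling, and a median of 0.02 with the actin covariate and 0.23 without the arrays numbered 3), and a median of -0.20 in the second, with 8 of 8 lower on GD14 than on GD13. For SF3 the median was -0.19 in the first step and -0.11 in the second. For PRPF it was -0.16 and -0.10. For hnRNP it was -0.07 in the first step (-0.16 with the actin ratio as a covariate, -0.02 without the arrays numbered 3) and -0.16 in the second (-0.06 without those arrays). The SR median of the first step was -0.00 and turned to 0.04 with quantile normalization and to 0.09 without the arrays numbered 3, and that of the second was -0.11. None of these differences between families was tested, and the step difference passed for 0 members.

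**Figure D2:**
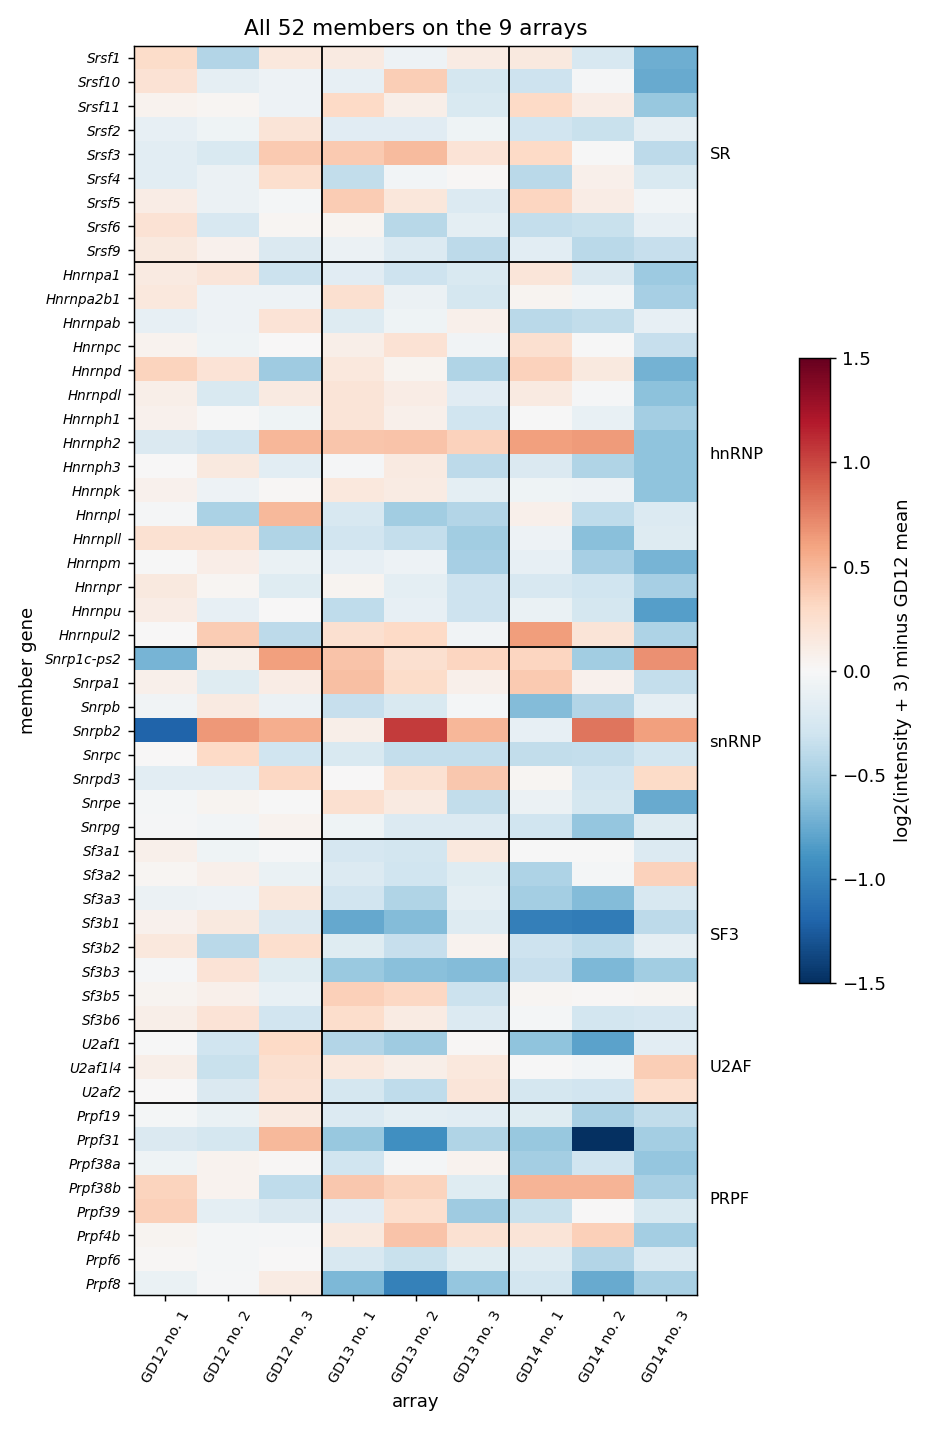
Heat map of all 52 splicing genes (one line each, by family) on the 9 arrays (columns, by day and array number). Colour is log2(intensity + 3) minus the gene's GD12 mean, blue below and red above it, with the scale ending at 1.5 in both directions. GD14 array 3 is blue for most SR and hnRNP genes, and Sf3b1, Prpf31 and Prpf8 are blue on GD13 and GD14.

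Among the complexes that recognise the branch point, SF3B held the member with the smallest adjusted p. Sf3b1 encodes the largest SF3B subunit, which clamps the branch point adenosine within the U2 snRNP. Its intensities were 475.0, 504.6 and 392.2 on GD12, then 266.8, 288.9 and 397.8 on GD13 and 222.2, 218.6 and 345.7 on GD14. Arrays 1 and 2 were clearly lower on the later days, while array 3 was high on both, and GD14 did not overlap GD12. Sf3b1 averaged 262 ± 72.4 on GD14 and 457 ± 58.3 on GD12 (SD, n = 3 each), a log2 difference of -0.82 (SE 0.24, 95% interval -1.35 to -0.29, limma adjusted p = 0.0991). It passed limma without GD14 array 3 (-1.03, adjusted p = 0.041), without all 3 arrays numbered 3 (-1.14, adjusted p = 0.0287), with array weights (-0.96, adjusted p = 0.0259), with a trended robust variance (adjusted p = 0.038) and with a filter at the median (adjusted p = 0.0479). These were 5 of 23 settings, and Sf3b1 passed in no other. With the array number as a block the limma adjusted p was 0.0816. It was 0.28 without GD14 array 1, 0.26 without GD14 array 2 and 0.107 with probe sets averaged (log2 difference -0.48).

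A second probe set of Sf3b1 did not show this difference. It read 180.1, 153.6 and 156.3 on GD12, then 165.9, 167.5 and 153.5 on GD13 and 166.4, 160.6 and 121.9 on GD14. All days overlapped, and the log2 difference of GD14 against GD12 was -0.13 (SE 0.16). The value of Sf3b1 thus depended on which probe set was read, and which transcripts each one detects is not given in the sources used here.

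Sf3b3 encodes a scaffold subunit of the same SF3B complex. Its intensities were 500.5, 581.9 and 444.3 on GD12, then 342.4, 326.5 and 322.1 on GD13 and 397.8, 315.2 and 352.4 on GD14. Every array of the later days lay below every GD12 array, and the GD14 values overlapped those of GD13. The log2 difference was -0.61 for GD13 against GD12 (SE 0.16, limma adjusted p = 0.18) and -0.51 for GD14 against GD12 (SE 0.16, limma adjusted p = 0.13). For the difference between the daily steps, Sf3b3 and Prpf8 had an unadjusted limma p of 0.0314 and 0.0114, with adjusted p = 0.957 and 0.953. They were the only 2 of the 52 members under 0.05 unadjusted, against 4.86% of all tested probe sets.

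Sf3a3, a subunit of the SF3A complex that was named after its values were seen, stood at 610.9, 616.6 and 728.5 on GD12, then 531.5, 475.1 and 585.1 on GD13 and 456.4, 412.0 and 549.3 on GD14. Both later days lay wholly below GD12, and GD14 overlapped GD13. Its log2 difference of GD14 against GD12 was -0.47 (SE 0.17, limma adjusted p = 0.189). The brightest of the family was Sf3b5, a small SF3B subunit, which averaged 1048 ± 4.93 on GD14 and 1034 ± 71.9 on GD12 (SD, n = 3 each), a log2 difference of 0.02 that turned negative in 5 of 23 settings. Sf3a2 averaged 1039 ± 285 on GD14 and 1048 ± 63.0 on GD12 (SD, n = 3 each), with GD14 arrays as far apart as 760.8 and 1329.8, and its log2 difference ran from -0.29 to 0.34 over the settings. Sf3a1, Sf3b2 and Sf3b6 had log2 differences of -0.07, -0.28 and -0.18.

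The U2AF heterodimer reads the 3' splice site, its large subunit U2af2 binding the polypyrimidine tract and its small subunit U2af1 the AG dinucleotide. U2af1 had intensities of 775.6, 635.0 and 962.2 on GD12, then 573.4, 539.6 and 791.5 on GD13 and 511.9, 444.8 and 698.2 on GD14. Array 3 was the highest and array 2 the lowest on each day, and within each array number the order of the days was the same. GD14 overlapped GD12 all the same, and without regard to number the log2 difference was -0.52 (SE 0.24, limma adjusted p = 0.309). With the number as a block, U2af1 fell on GD14 (same difference, limma adjusted p = 0.0489), and it did not pass in any other setting. The difference was -0.28 with the actin ratio as a covariate and -0.28 to -0.70 over all settings.

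U2af2 averaged 2670 ± 596 on GD14 and 2839 ± 425 on GD12 (SD, n = 3 each), with array 3 the highest on each day. The log2 difference was -0.10 (SE 0.22). U2af1l4, a U2af1-like gene, averaged 229 ± 37.5 on GD14 and 214 ± 42.5 on GD12 (SD, n = 3 each), a log2 difference of 0.11 (SE 0.19). The days overlapped for both genes, and both differences changed sign in some settings.

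Among the PRPF genes, Prpf8, the U5 snRNP protein at the catalytic centre, had the largest difference of the first day among all members. Its intensities were 355.1, 378.6 and 414.6 on GD12, then 237.4, 187.2 and 254.0 on GD13 and 315.9, 225.2 and 272.1 on GD14. GD13 and GD14 each lay wholly below GD12, and GD14 overlapped GD13. The log2 difference was -0.76 for GD13 against GD12 (SE 0.18, limma adjusted p = 0.143), 0.26 for GD14 against GD13 and -0.50 for GD14 against GD12 (limma adjusted p = 0.195).

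Prpf31, which holds the U4/U6 and U5 particles together in the tri-snRNP, had 173.5, 168.6 and 284.6 on GD12, then 136.2, 105.8 and 147.6 on GD13 and 136.3, 67.3 and 141.5 on GD14. Array 3 of GD12 was far above the other 2 of its day, array 2 of GD14 was far below the others of its own, and both later days lay below GD12. The log2 difference of GD14 against GD12 was -0.87 (SE 0.32, 95% interval -1.60 to -0.15, limma adjusted p = 0.195), the lowest of all members. It ran from -0.54 to -1.06 over the settings.

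Prpf38a, the counterpart of a yeast protein needed for activation of the spliceosome, read 325.8, 351.8 and 342.9 on GD12, then 276.8, 331.9 and 353.4 on GD13 and 238.6, 275.6 and 226.8 on GD14. GD14 lay below both earlier days, though below GD13 only by 275.6 against 276.8, and GD13 overlapped GD12. The log2 difference was -0.46 for GD14 against GD12 (SE 0.16, limma adjusted p = 0.159) and -0.37 for GD14 against GD13 (limma adjusted p = 0.678). Its relative Prpf38b had the highest difference of the family, 0.18 (SE 0.32), with arrays 1 and 2 of GD14 at 476.1 and 478.9 and array 3 at 238.4, and it ran from -0.14 to 0.51 over the settings.

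Prpf19, the ubiquitin ligase at the core of the Prp19 complex, was the brightest PRPF gene. It read 839.7, 794.3 and 934.7 on GD12, then 739.3, 773.1 and 767.2 on GD13 and 753.9, 610.8 and 659.6 on GD14. Both later days lay below GD12 with a log2 difference of -0.34 on GD14 (SE 0.15, limma adjusted p = 0.265). Prpf6, a tri-snRNP bridging protein named after its values were seen, averaged 352 ± 32.6 on GD14 and 427 ± 7.78 on GD12 (SD, n = 3 each), a log2 difference of -0.28. Prpf4b, a kinase, and Prpf39, a U1-associated protein in yeast, were dim, at 47.0 ± 14.5 and 23.8 ± 3.23 on GD14 and 44.9 ± 1.29 and 27.9 ± 7.08 on GD12 (SD, n = 3 each).

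**Figure D3:**
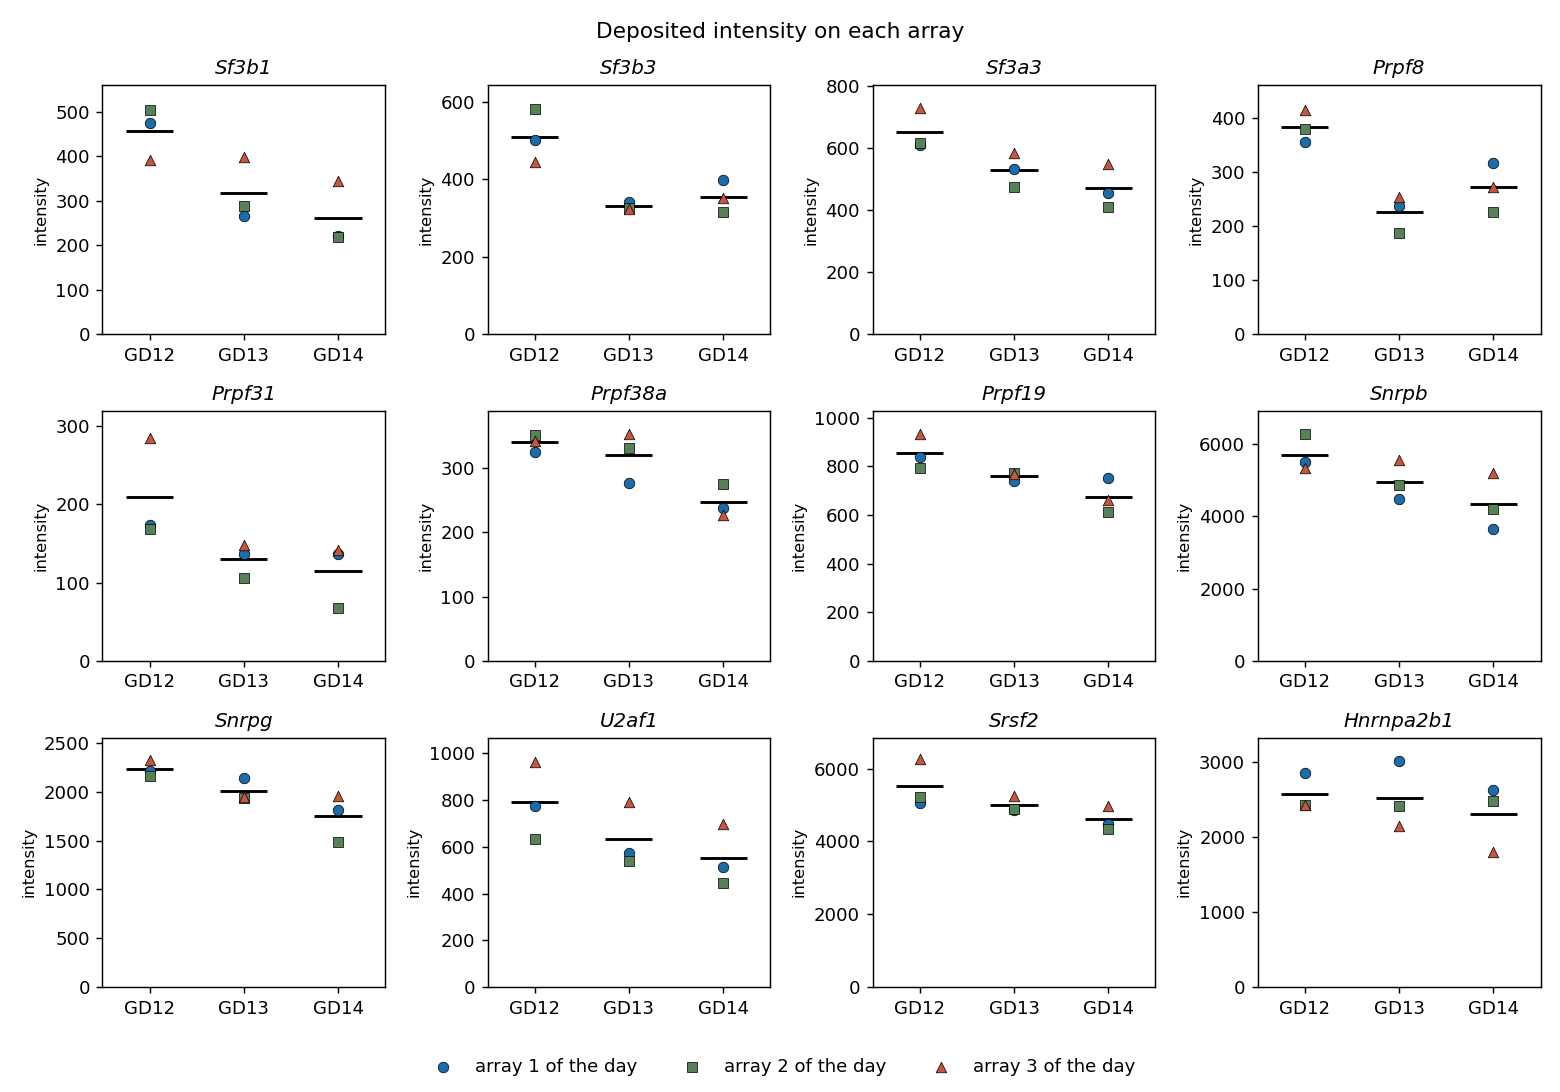
Deposited intensity (vertical axes, linear, starting at 0) of 12 splicing genes on each array of GD12, GD13 and GD14. Symbols give the array number within the day and black lines the day means. GD14 arrays all lie below the GD12 arrays for Sf3b1, Sf3b3, Sf3a3, Prpf8, Prpf31, Prpf38a, Prpf19, Snrpb, Snrpg and Srsf2. U2af1 and Hnrnpa2b1 have days that overlap. Some of these genes were chosen after their values were seen. Over all 52 members this order was found for 15 (28.8%), against 10.3% of all tested probe sets.

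The plot of intensities by array sets these members side by side. The Sm proteins, which form the ring around the snRNAs, included both bright and dim probe sets. Snrpb, the Sm protein B, read 5493.8, 6268.4 and 5353.0 on GD12, then 4468.7, 4860.2 and 5558.4 on GD13 and 3639.2, 4205.2 and 5200.5 on GD14. GD14 lay below GD12 by a narrow margin on array 3, and the log2 difference was -0.40 (SE 0.18, limma adjusted p = 0.286). With quantile normalization it was -0.16 (limma adjusted p = 0.703). Snrpg, named after its values were seen, averaged 1752 ± 238 on GD14 and 2233 ± 82.0 on GD12 (SD, n = 3 each), with a log2 difference of -0.36 (limma adjusted p = 0.265). Snrpe averaged 1815 ± 413 on GD14 and 2304 ± 59.2 on GD12 (SD, n = 3 each), a log2 difference of -0.37 that was widest on array 3, at 1362.2 on GD14.

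The remaining Sm gene, Snrpd3, differed by 0.01 on the log2 scale between GD14 and GD12. Of the proteins particular to one snRNP, Snrpc of U1 had a difference of -0.34 and Snrpa1 of U2 one of 0.03. Snrpb2 of U2, the highest of all members at 0.43 (SE 0.50), was dim and scattered, with 49.5, 96.5 and 84.3 on GD14 and 21.9, 86.7 and 80.5 on GD12. Its days overlapped, and it ran from -0.17 to 0.78 over the settings. Snrp1c-ps2 had a difference of 0.16 (SE 0.38).

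SR proteins bind exonic enhancers and promote the use of nearby splice sites. The brightest, Srsf2, read 5055.9, 5231.5 and 6253.3 on GD12, then 4860.2, 4893.4 and 5261.1 on GD13 and 4484.5, 4352.3 and 4981.0 on GD14. GD14 lay below GD12 without overlap, but the log2 difference of -0.26 (SE 0.15, limma adjusted p = 0.426) turned to 0.01 with quantile normalization. Srsf1, long known as a splicing factor and a proto-oncogene, averaged 189 ± 56.9 on GD14 and 228 ± 56.4 on GD12 (SD, n = 3 each), a log2 difference of -0.28 (SE 0.26).

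Srsf3, the smallest SR protein, read 356.4, 339.1 and 522.1 on GD12, then 525.5, 555.5 and 459.8 on GD13 and 490.6, 396.3 and 303.2 on GD14. On arrays 1 and 2 it was highest on GD13, and on array 3 it was lower on each later day. Its log2 differences were 0.36 for GD13 against GD12 and -0.39 for GD14 against GD13 (SE 0.23 each). Srsf5 was the only SR gene higher on GD14, at 1301 ± 168 against 1183 ± 81.2 on GD12 (SD, n = 3 each), a log2 difference of 0.13 (SE 0.19). Srsf10, a splicing repressor when dephosphorylated, had the lowest difference of the family, -0.36 (SE 0.24), with GD14 array 3 at 117.4 against 161.3 and 198.1 on the other arrays of that day. Over the settings the GD14 against GD12 difference ran from -0.59 to 0.03 for Srsf1, from -0.55 to 0.03 for Srsf10 and from -0.01 to 0.22 for Srsf5. Srsf4, Srsf6, Srsf9 and Srsf11 lay between -0.30 and -0.06.

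The hnRNP proteins package nascent transcripts and often silence splice sites. Hnrnpa2b1, the brightest of them, read 2847.0, 2431.8 and 2425.1 on GD12, then 3018.3, 2418.3 and 2140.4 on GD13 and 2624.8, 2478.8 and 1805.2 on GD14. Array 3 was the lowest on each day and the days overlapped, with a log2 difference of -0.17 (SE 0.20) for GD14 against GD12. Hnrnpa1, an antagonist of SR proteins, averaged 113 ± 29.2 on GD14 and 129 ± 23.9 on GD12 (SD, n = 3 each), with a log2 difference of -0.19 (SE 0.22). Hnrnpc, which binds uridine tracts, differed by -0.04 (SE 0.18), and Hnrnpk, which binds cytidine-rich RNA, by -0.25 (SE 0.19). Over the settings these differences ran from -0.33 to 0.43 for Hnrnpa2b1, from -0.38 to -0.02 for Hnrnpa1, from -0.17 to 0.12 for Hnrnpc and from -0.40 to -0.06 for Hnrnpk.

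Hnrnpm had the lowest difference of the family, -0.44 (SE 0.19, limma adjusted p = 0.289), at 1354.1, 1040.6 and 906.3 on GD14 and 1464.9, 1578.8 and 1377.3 on GD12. GD14 lay below GD12 without overlap. Hnrnpl, a regulator that binds CA repeats, averaged 362 ± 120 on GD12, 264 ± 26.6 on GD13 and 312 ± 51.6 on GD14 (SD, n = 3 each). Its log2 differences were -0.40 for GD13 against GD12 and 0.23 for GD14 against GD13 (SE 0.25 each), and its days overlapped. The first was -0.16 without GD12 array 3, which read 489.5 against 345.3 and 250.2 on the other GD12 arrays, and -0.64 without GD12 array 2. The second was 0.11 without GD14 array 1.

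Hnrnph2, a close relative of Hnrnph1 that binds G runs, had the highest difference of the family, 0.22 (SE 0.35, limma adjusted p = 0.816). It read 47.7, 45.4 and 80.5 on GD12, then 75.9, 76.3 and 71.7 on GD13 and 87.0, 88.9 and 35.9 on GD14. On arrays 1 and 2 it was higher on each later day, and on array 3 it was lower. Without the arrays numbered 3 its log2 difference was 0.88 (limma adjusted p = 0.042), and over the other settings it was as low as 0.00. Hnrnph1 differed by -0.21 and Hnrnph3 by -0.42, and the other hnRNP genes lay between -0.40 for Hnrnpu and 0.12 for Hnrnpul2.

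Precision set what these arrays could show. For GD14 against GD12 the 95% interval of the log2 difference lay within a 2-fold difference in both directions for 46 of the 52 genes. It reached a 2-fold lower level for Sf3b1, Prpf31 and U2af1, and a 2-fold higher level for Hnrnph2, Snrp1c-ps2 and Snrpb2. For GD13 against GD12 and for GD14 against GD13 the intervals of 46 and 50 genes lay within 2-fold. Of all 9326 tested probe sets, 5925 lay within 2-fold for GD14 against GD12. The counts were 6353 for GD13 against GD12 and 6665 for GD14 against GD13. Of the 6218 probe sets above the median intensity, 4885 lay within 2-fold for GD14 against GD12. An interval within 2-fold does not show that a gene was the same on both days.

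**Figure D4:**
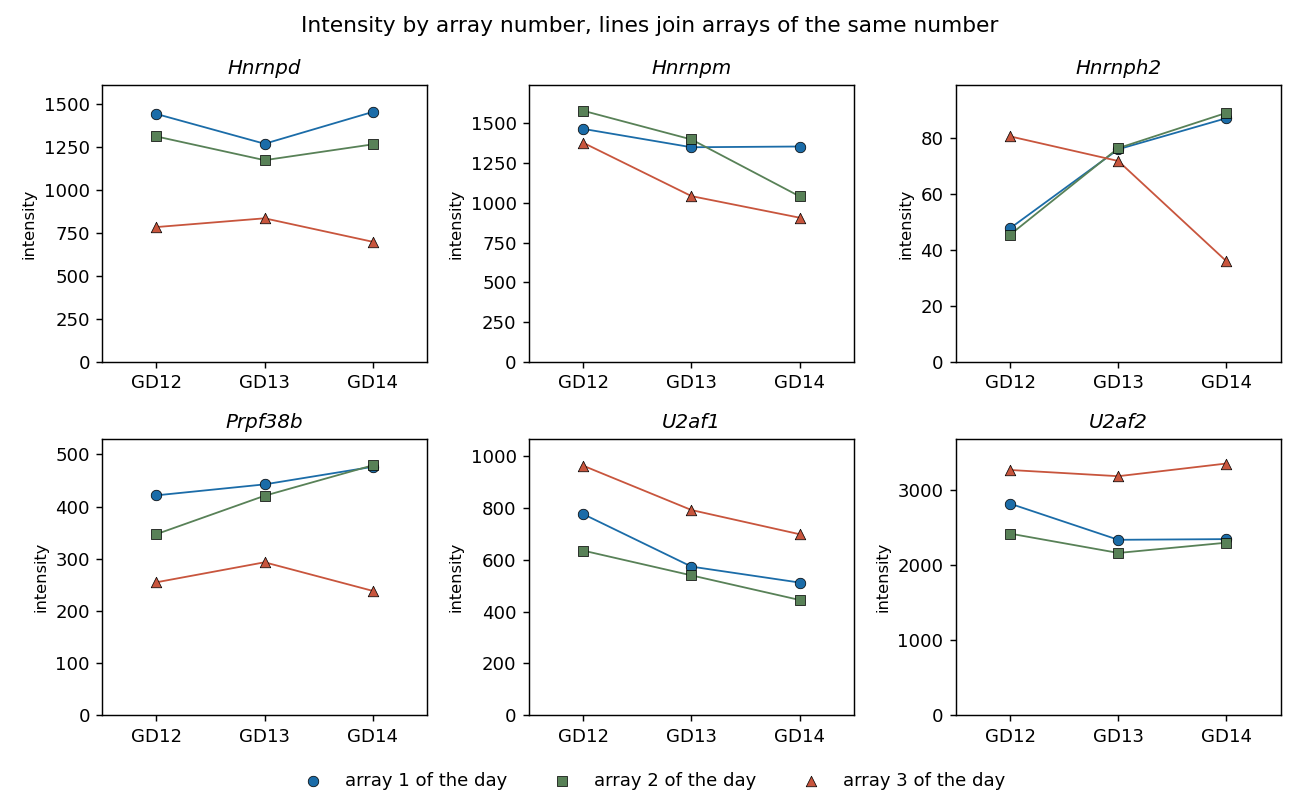
Intensity (vertical axes, linear, starting at 0) of 6 splicing genes on GD12, GD13 and GD14, with lines joining arrays of the same number. The genes were chosen after their values were seen. Array 3 is the lowest on each day for Hnrnpd, Hnrnpm and Prpf38b and the highest for U2af1 and U2af2, while Hnrnph2 crosses over.

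Many hnRNP genes were lowest on the arrays numbered 3, as the plot by array number shows. Array 3 was the lowest of its day on all 3 days for 9 members (17.3%), against 11.5% of all tested probe sets, and 7 of the 9 were hnRNP genes: Hnrnpa2b1, Hnrnpd, Hnrnph1, Hnrnph3, Hnrnpm, Hnrnpr and Hnrnpul2. It was the highest on all days for 8 members (15.4%), among them U2af1, U2af2, Srsf2 and Prpf31, against 11.8% of all tested probe sets. Hnrnpd read 1451.3, 1263.0 and 696.9 on GD14 and 1439.4, 1308.8 and 782.5 on GD12. There array 3 was farther from the other arrays of its day than any array was from the array of its number on the other day.

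Neuron markers were also low on the arrays numbered 3. Their summed intensity on array 3 was 2732 for GD12, 2297 for GD13 and 2131 for GD14. Arrays 1 and 2 had 4944 and 4956 for GD12, 3154 and 3222 for GD13, and 2947 and 2820 for GD14. Of 18 tested neuron markers, 10 were lowest on array 3 on all days, among them Stmn2, Ina and Mapt. The same held for 5 of 16 skeletal muscle markers, 2 of 8 bone markers, 1 of 16 epithelial markers and 0 of 21 markers of dividing cells, against 11.5% of all tested probe sets. Array 3 was the highest on all days for 6 of 21 markers of dividing cells, 5 of 16 epithelial markers and 1 of 18 neuron markers. For muscle and bone markers this count was 0, and the share of all tested probe sets was 11.8%. The part of these markers or of RNA quality in the hnRNP values was not tested.

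**Figure D5:**
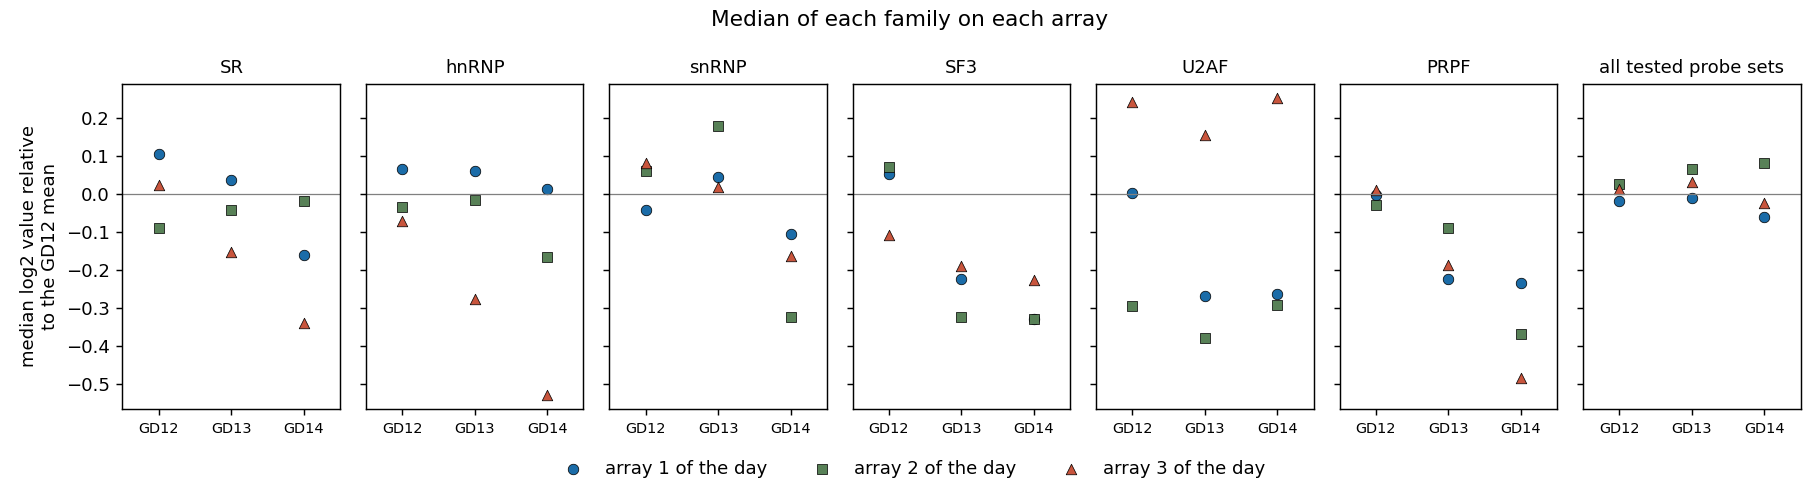
Median over each family of log2(intensity + 3) relative to the gene's GD12 mean (vertical axis), on each array of GD12, GD13 and GD14, with all tested probe sets in the last panel. The hnRNP median on GD14 array 3 is -0.53, against 0.02 and -0.16 on the other GD14 arrays, and the SF3 medians of GD13 and GD14 all lie below those of GD12.

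Family medians on each array, shown in the plot of family medians, gave the same picture. The hnRNP median relative to the GD12 mean was 0.02, -0.16 and -0.53 on GD14 arrays 1, 2 and 3 and 0.07, -0.03 and -0.07 on those of GD12. The SF3 median was -0.33, -0.33 and -0.23 on GD14 and 0.05, 0.07 and -0.11 on GD12, so that the days did not overlap. The PRPF median was -0.23, -0.37 and -0.48 on GD14 and -0.00, -0.03 and 0.01 on GD12, again without overlap. The same held for snRNP genes, at -0.10, -0.32 and -0.16 on GD14 and -0.04, 0.06 and 0.08 on GD12. It also held for the median over all members, at -0.11, -0.27 and -0.35 on GD14 and 0.04, -0.06 and 0.01 on GD12. The SR medians overlapped, at -0.16, -0.02 and -0.34 on GD14 and 0.11, -0.09 and 0.02 on GD12. The U2AF medians, over 3 genes, were -0.26, -0.29 and 0.25 on GD14 and 0.00, -0.29 and 0.24 on GD12. Array 3 was the highest and array 2 the lowest on both days, while array 1 was lower on GD14. Over all tested probe sets the medians lay between -0.06 and 0.08.

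Without the arrays numbered 3, the median of the GD14 against GD12 differences was -0.08 for hnRNP and -0.04 for SR genes, against -0.20 and -0.26 with them. For snRNP genes it was -0.08, against -0.16 with them. With the actin ratio as a covariate on all arrays the hnRNP median was instead -0.34, with 15 of 16 genes lower. Without the arrays numbered 3 it was -0.29 for SF3 and -0.29 for PRPF genes, against -0.23 and -0.31 with them. Over all members it was -0.18, with 36 lower and 16 higher. In those 6 arrays GD14 lay wholly below GD12 for 26 of the 52 members, against 25.2% of all tested probe sets, and wholly above it for 5 members (9.62%), against 25.6%.

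Several genes had further probe sets, which often gave another size. For 16 genes the array held 19 dimmer probe sets, 14 of them above the filter, and 0 of the 14 passed in any comparison. For GD14 against GD12, 3 had the opposite sign: Hnrnpa2b1 (0.43 for the dimmer against -0.17 for the brighter one), Sf3a2 (0.34 against -0.05) and Srsf10 (0.03 against -0.36). The others had the sign of the brighter one, among them a second Srsf1 probe set at -0.59 (93.6, 97.3 and 127.0 on GD14, against 123.5, 181.6 and 180.0 on GD12), with overlapping days. Of the 52 member probe sets, 9 carry a suffix that the array maker gives where probes may match several transcripts or could not meet all its selection rules, among them those of Srsf2, Srsf3, Snrpb, Snrpe and Sf3a2. Their signals may mix related sequences.

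Promoter sequences are shown for the 3 members with an unadjusted p under 0.05 for GD13 against GD12. RefSeq promoters of build GRCm38.p6 were found for 46 of the 52 genes, and not for Sf3b5, U2af2, Hnrnpll, Hnrnpul2, Snrp1c-ps2 and Snrpb. The 250 bases before the annotated start are printed below, 5' to 3' on the strand of the gene, for Sf3b1 (chr1:55027479-55027728, minus strand), Sf3b3 (chr8:110846804-110847053, minus strand) and Prpf8 (chr11:75486527-75486776, plus strand). Capitals mark matches, on either strand, to the GC box GGGCGG, the ETS site CCGGAAG or the CCAAT box CCAAT.
Sf3b1 promoter: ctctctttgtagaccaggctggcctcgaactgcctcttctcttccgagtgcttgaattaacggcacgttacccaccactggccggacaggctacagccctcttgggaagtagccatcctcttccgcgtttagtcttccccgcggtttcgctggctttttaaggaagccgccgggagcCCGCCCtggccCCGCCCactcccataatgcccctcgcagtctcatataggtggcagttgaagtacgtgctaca
Sf3b3 promoter: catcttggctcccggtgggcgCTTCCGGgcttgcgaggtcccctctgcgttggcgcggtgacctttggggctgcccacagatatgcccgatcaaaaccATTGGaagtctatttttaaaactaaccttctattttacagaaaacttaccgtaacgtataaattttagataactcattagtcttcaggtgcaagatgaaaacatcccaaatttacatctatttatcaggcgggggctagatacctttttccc
Prpf8 promoter: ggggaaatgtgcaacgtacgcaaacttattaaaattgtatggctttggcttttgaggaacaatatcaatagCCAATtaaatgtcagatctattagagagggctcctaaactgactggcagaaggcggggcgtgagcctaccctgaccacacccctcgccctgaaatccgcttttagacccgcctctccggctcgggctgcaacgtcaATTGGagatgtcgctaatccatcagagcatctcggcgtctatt

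The 3 promoters did not share one arrangement. Sf3b1 held 2 GC boxes, Sf3b3 held 1 ETS site, 1 CCAAT box and 1 TATA box that is not in capitals, and Prpf8 held 2 CCAAT boxes. Over the 46 member promoters, the GC box occurred in 67.4%, the CCAAT box in 47.8%, the ETS site in 32.6% and the NRF1 site in 15.2%, searched on both strands and counted separately where motifs overlapped. Among all 27025 RefSeq promoters of the same length, which include those of non-coding and predicted genes, the shares were 32.9%, 34.5%, 7.05% and 3.86%. The TATA box TATAAA occurred in 8.7% of member promoters and 13% of all, the E box CACGTG in 4.35% and 6.05%, and the CRE TGACGTCA in 2.17% and 1.62%. Member promoters had a median of 19.5 CpG dinucleotides and a GC content of 60%, against 6 and 52% for all. A match describes these letters only and shows no binding.

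Genes of 4 textbook lists of other splicing and RNA-binding proteins were mostly lower on GD14 as well. The lists are broad and include Lsm1, Lsm14a, Npm1 and Ncl, whose part in splicing was not checked here. Of 46 tested genes for other core spliceosome and snRNP assembly proteins, 42 were lower and 4 higher on GD14 than on GD12, with a median log2 difference of -0.22 and 0 past the threshold in limma. The brightest, the helicase Ddx39b, averaged 1247 ± 149 on GD14 and 1612 ± 127 on GD12 (SD, n = 3 each, limma adjusted p = 0.235). Splicing kinases and SR-related proteins had 13 of 17 lower, a median of -0.21 and 0 past the threshold, with the SR-like protein gene Tra2b brightest at 1046 ± 126 on GD14 and 1208 ± 139 on GD12 (SD, n = 3 each). Other abundant nuclear RNA-binding proteins had 15 of 19 lower, a median of -0.16 and 0 past the threshold. Their brightest gene, Ybx1, averaged 6390 ± 2331 on GD14 and 8475 ± 416 on GD12 (SD, n = 3 each, limma adjusted p = 0.357), with array 3 of GD14 at 9081.5 and the other 2 at 5027.9 and 5060.5.

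Alternative splicing regulators had 17 of 23 lower, a median of -0.18 and 1 gene that fell. This was Ptbp2, the neuronal relative of the polypyrimidine tract binding protein, which read 344.8, 372.7 and 354.1 on GD12, then 203.1, 231.6 and 184.9 on GD13 and 226.5, 161.8 and 174.9 on GD14. Every array of the later days lay far below GD12. The log2 difference of GD14 against GD12 was -0.93 (SE 0.17, limma adjusted p = 0.0185, and 0.0249 with the array number as a block). The call was lost in limma without any one of the GD12 arrays (adjusted p = 0.06, 0.0634 and 0.0531), without GD14 array 2 (0.069), without the arrays numbered 3 (0.104), with only GD12 and GD14 fitted (0.0581) and with probe sets averaged (0.0595). The log2 difference was -0.83 to -1.07 with single arrays left out and -0.75 with probe sets averaged. A second, dim probe set of Ptbp2 had a difference of -0.57 (limma adjusted p = 0.293). GD13 against GD12 and GD14 against GD13 gave 0 calls in the 4 lists.

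Markers of other cells differed between the same days. Of 21 tested markers of dividing cells, 21 were lower on GD14 than on GD12 and 3 of them fell (6 with the array number as a block), with a median log2 difference of -0.52, and their summed intensity was 10000 to 11010 on GD14 and 14220 to 15970 on GD12. Neuron markers had 16 of 18 lower and 1 that fell, Mapt, with sums of 2131 to 2947 on GD14 and 2732 to 4956 on GD12. With the array number as a block 4 of them fell, Stmn2, Ina, Mapt and Elavl4. Elavl3 and Elavl4 stand both among these markers and in the list of alternative splicing regulators. Embryonic globins, of which 3 of 3 fell, summed to 3445 to 4011 on GD14 and 13220 to 17610 on GD12. Markers of skeletal muscle, oral epithelium and mineralizing bone rose in 8 of 16, 8 of 16 and 7 of 8 cases, with bone sums of 10070 to 13320 on GD14 and 1523 to 2164 on GD12. Over all 9326 tested probe sets, 302 rose and 99 fell between these days without the block. The block raised the count over all probe sets as well, as given above. Of these markers, 0 were at 0 on all arrays. The part of these shifts in the values of the splicing genes was not tested.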

How the data were processed

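Labelled RNA of 9 arrays, 3 per gestation day, was measured. The values are intensities that the authors deposited as a processed table and had scaled between arrays; the software is not given in the sources used here. The members, gene lists and tests were chosen with earlier results of these data known. Control probe sets and those whose mean log2 value lay at or under the 25th percentile (an intensity of 10.4) were left out, which left 9326 of 12488 probe sets. log2(intensity + 3) was fitted in limma 3.58.1 (R 4.3.3) with 3 day means and moderated variances (residual degrees of freedom 6, prior 2.85) and Benjamini-Hochberg adjustment over all 9326. The script was tested on simulated data. Gene symbols came from the array annotation, and all 52 gene IDs were found in the RefSeq table, with 0 symbols changed. Tables and plots were made with Python 3.11.15, numpy 2.4.6, pandas 2.3.3 and matplotlib 3.10.9. Depth does not apply to arrays, and their number limits the precision.

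Named genes were those past the threshold in a fit with or without the block, each family's brightest gene and its highest and lowest GD14 against GD12 differences, the 3 highest and 3 lowest differences of each comparison, and a list of well-known members. For pairing, residuals of arrays with the same number correlated at 0.19 to 0.42 and those with different numbers at -0.29 to -0.02, so the numbers pair the arrays. The fit without the block was kept as fixed, so the adjusted p-values given here ignore this pairing unless the block is named. With the block in limma, the adjusted p for GD14 against GD12 was 0.0559 for Prpf31 and 0.0659 for Sf3a3, against 0.195 and 0.189 without it. Alternatives changed the scaling, the added value, the filter, the variance model, the probe set and the arrays used.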

Additional observations from a re-analysis of the deposited data

How the results depend on the processing

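Each result was recomputed under 23 settings, 9 of which left out 1 array. The count of members past the threshold for GD14 against GD12 was 0 in 17 of them. It was 1 (Sf3b1) with array weights, a filter at the median and a trended robust variance, 1 (U2af1) with the array number as a replicate block, and 2 (Hnrnph2 and Sf3b1) without the 3 arrays numbered 3, a setting added after the data were seen. Leaving out single arrays gave 0 to 1, the 1 being Sf3b1 without GD14 array 3. For GD13 against GD12, GD14 against GD13, the F-test and the step difference it was 0 in every setting run. The block changed no other call of a member.

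The median difference of the members was -0.30 to -0.17 for GD14 against GD12, -0.19 to -0.09 for GD14 against GD13 and -0.17 to -0.01 for GD13 against GD12, the last being -0.012 with the second brightest probe sets. Of the 105 tested genes of the 4 other lists, 1 passed for GD14 against GD12. The count was 2 with the actin covariate, array weights or without the arrays numbered 3, and 3 with the replicate block or the trended robust variance. With the block the 3 included Elavl4, which is also a neuron marker. The count was 0 with probe sets averaged or only the compared days fitted. Leaving out single arrays gave 0 to 4. Over all probe sets the count was 401, and 620 with the block, 615 with array weights, 227 with only the compared days fitted and 178 to 394 with single arrays left out. Of 1860 recomputed values of named members 7 newly passed. None of these members was called at first, and 92 of the 1860 values had the opposite sign. For GD14 against GD12, 13 of 27 named members kept their sign in every setting and 14 did not. The causes were not tested. The 3 arrays a day limit the precision, and the SE of the members had a median of 0.20 on the log2 scale.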
